A study of Mus musculus with 9 samples.

Results

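The data described here are the 3 untreated (Ctrl) RNA libraries of a 9-library series on b.End3 cells, and the question was what these cells express before any intervention. The 3 libraries were chosen by their label, Ctrl, which is taken here as untreated, and they list 54532 mouse genes each. The other 6 libraries came from cells given 300 µg/mL of the photosensitizer porfimer sodium for 90 min and then 635 nm laser light at 100 mW/cm2 to a dose of 10 (Ep1) or 20 (Ep2) J/cm2, and they are not analysed here. The labels give brain microvessel endothelial cells as the cell type and C57BL/6 as the strain, with mouse as the organism, but one protocol text calls the cells rat. Most of the 40 endothelial marker genes examined were low or absent, so the libraries are called by their label and given no other cell type. Cells were grown in DMEM with fetal bovine serum and antibiotics, and nothing states whether the 3 Ctrl libraries came from separate cultures, so the SD given with each mean covers the spread between these libraries, which may be technical.

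b.End3 is an established line of mouse brain endothelial cells made permanent with the middle T antigen of a polyomavirus, and it is widely used as a cell model of the blood-brain barrier. Brain endothelial cells line the capillaries of the brain, seal the gaps between them with tight junctions built around claudin 5 and occludin, and move glucose, amino acids, lactate and iron by dedicated carriers while the pumps of the ABC family send many drugs back to the blood. Their identity is kept by transcription factors such as ERG and FLI1, and their surface carries PECAM1, VE-cadherin (Cdh5), the VEGF receptor KDR and the angiopoietin receptor TEK.

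Levels are given as FPKM (fragments per kilobase of gene length, scaled to the depth of the library), a unit per length that lets genes be set side by side, as mean ± SD over the 3 libraries (n = 3), or as the 3 values in the order Ctrl 1, 2 and 3. Gene positions are in GRCm38 coordinates, as the files give them. The libraries held 19105017, 19509225 and 18289776 fragments on the listed genes. Of 21540 protein-coding genes, 9773 were at 1 FPKM or more in all 3 libraries, which was 45.4% and is the background for each list of genes that follows. No fragment in any library was found for 6562 (30.5%), which is the background for each count of genes with no fragment. Of all genes at that level in all 3 libraries, between 92.0% and 93.8% lay within 1.25-fold in each pair of libraries. The pairs nonetheless differed by more than counting error, since chi-square values were 2.81 to 4.99 per degree of freedom, where counting error alone gives about 1.

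The most abundant messages were those of translation and the mitochondrion. The 50 protein-coding genes with the highest means held 20.0% ± 0.262 of all FPKM, and 22 of these 50 encode cytosolic ribosomal proteins, 5 are encoded by the mitochondrial genome and 4 are glycolytic enzymes. As a share of fragments, which is not divided by gene length, the 50 held 10.9%. mt-Co1, a catalytic subunit of cytochrome c oxidase, stood first at 4512, 4670.4 and 4935 FPKM. Eef1a1, the elongation factor that brings aminoacyl-tRNA to the ribosome, followed at 3869, 3967 and 3842 FPKM. The ribosomal stalk protein gene Rplp1 came next at 3469, 3609.6 and 3526 FPKM. The order of these 3 genes was the same in every library, and their levels did not overlap. All 79 cytosolic ribosomal protein genes reached 1 FPKM in every library, and together they summed to 44831 ± 1364 FPKM, or 13.9% of the total. Of the 79, 44 have more than 10% of their transcript windows elsewhere in the genome, so the levels of single members are uncertain. This list was trimmed by gene name after levels were seen, so its full count cannot be set against the background share.

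Outside translation and respiration, the most abundant message was Lgals1 (ENSMUSG00000068220, chr15:78926725-78930465, plus strand), the secreted β-galactoside-binding lectin galectin-1, at 2312, 2436 and 2411 FPKM. Hsp90ab1, a constitutive cytosolic chaperone, was at 1910.4, 1880.2 and 1784 FPKM. S100a11, a calcium-binding S100 protein, was at 1168 ± 43.4 FPKM. The ferritin heavy chain Fth1, which stores iron, was at 1159.9 ± 53.3 FPKM. Eef2, the translocation factor of translation, was at 1144 ± 37.2 FPKM. These genes differed little between libraries, with a highest-to-lowest ratio of 1.05 for Lgals1 and 1.09 for Fth1. The other genes among the first 20 were mt-Nd1 (3315 FPKM), mt-Cytb (3047), mt-Nd2 (1504) and the ribosomal protein genes Rplp0 (2029), Rps3a1 (1797), Rpl36 (1685), Rpl8 (1532), Rpl19 (1458), Rps2 (1403), Rpl41 (1269), Rpl4 (1059) and Rps15 (1039).

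**Figure D1:**
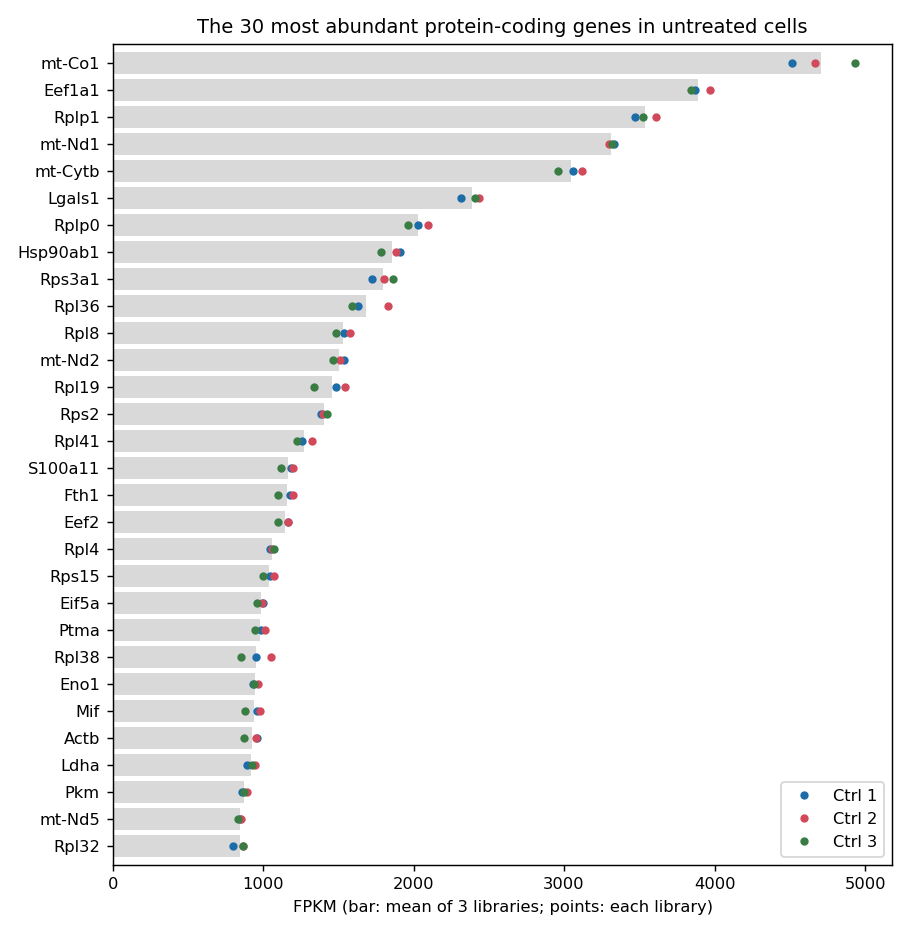
Levels of the 30 protein-coding genes with the highest mean, in FPKM on a linear axis from 0. Bars give the mean of the 3 untreated libraries and points each library. mt-Co1 lies highest in every library, and the points of a gene lie close together beside the differences between genes.

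The label of endothelial cells was set beside 40 endothelial marker genes, a list chosen with earlier results of these data known. Most of the 40 were low or absent. Below 0.1 FPKM in every library were 22 of the 40, against 8946 of the 21540 protein-coding genes. A further count, of genes with no fragment in any library, was 7 of the 40 (17.5%). That share was below the 30.5% of all protein-coding genes. Only 7 of the 40 (17.5%, against 45.4% of all protein-coding genes) reached 1 FPKM in every library. The count rose to 12 at 1 TPM and to 14 with a minimum of 10 fragments, and fell to 4 at a threshold of 5 FPKM. The libraries summed to 321988, 326679 and 321686 FPKM. TPM scales each to a larger sum, so 1 TPM was a lower bar than 1 FPKM. At 0.5 FPKM the count was 10. The median of the 40 means was 0.0426 FPKM, against 0.452 FPKM over all protein-coding genes. In bulk RNA, fewer cells of a type and less RNA per cell cannot be told apart.

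Pecam1 (ENSMUSG00000020717, chr11:106654217-106750628, minus strand), an adhesion molecule of endothelial cell borders, was at 0.192, 0.0821 and 0.156 FPKM, or 23, 10 and 18 fragments. Kdr (ENSMUSG00000062960, chr5:75932827-75978458, minus strand), the main VEGF receptor of endothelial cells, was at 0.0402, 0.0283 and 0.0537 FPKM, from 7, 5 and 9 fragments. Cdh5 (ENSMUSG00000031871, chr8:104101625-104144511, plus strand), which encodes VE-cadherin, was at 0.901, 0.864 and 0.807 FPKM, near the threshold but below 1 in each library. The angiopoietin receptor genes were also low, Tek at 0.0328 ± 0.029 FPKM and Tie1 at 0.0769 ± 0.0774 FPKM. The genes for von Willebrand factor, Vwf, and for endothelial nitric oxide synthase, Nos3, were at 0.104 ± 0.00784 and 0.0422 ± 0.0149 FPKM. Cldn5, the main claudin of the blood-brain barrier, had 0, 0 and 2 fragments. The transcription factor genes Erg, Fli1, Sox17 and Tal1 and the surface protein genes Emcn, Robo4 and Clec14a had no fragment in any library. With a floor of 3 fragments per library, a count of 0 allows a level of up to 0.0452 FPKM for Erg and 0.04499 FPKM for Fli1, which covers counting error only.

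The 7 endothelial markers that did reach the threshold were Procr, Ecscr, Gata2, Flt1, Egfl7, Thbd and Eng. Procr (ENSMUSG00000027611, chr2:155751117-155755471, plus strand), the endothelial protein C receptor, was at 41.5, 41.7 and 40.8 FPKM. Ecscr, a surface protein of endothelial cells, was at 19.1, 18.7 and 20.6 FPKM, and the decoy-like VEGF receptor Flt1 at 6.66, 7.04 and 6.99 FPKM. All 3 genes were well above 1 FPKM in each library, and Flt1 was 182 ± 60.8 times as high as Kdr. Gata2, a transcription factor shared with blood progenitors, was at 8.69 ± 0.289 FPKM. Egfl7 (2.09 ± 0.291), thrombomodulin (Thbd, 1.37 ± 0.0942) and endoglin (Eng, 1.32 ± 0.127) lay just above 1 FPKM. Egfl7 and Eng overlap their neighbours Agpat2 and Fpgs on the other strand by 64 and 61 bases. Agpat2 and Fpgs were higher, at 18.2 and 13.5 FPKM, and as no source states whether the counting used strand, reads of the overlap cannot be told apart.

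**Figure D2:**
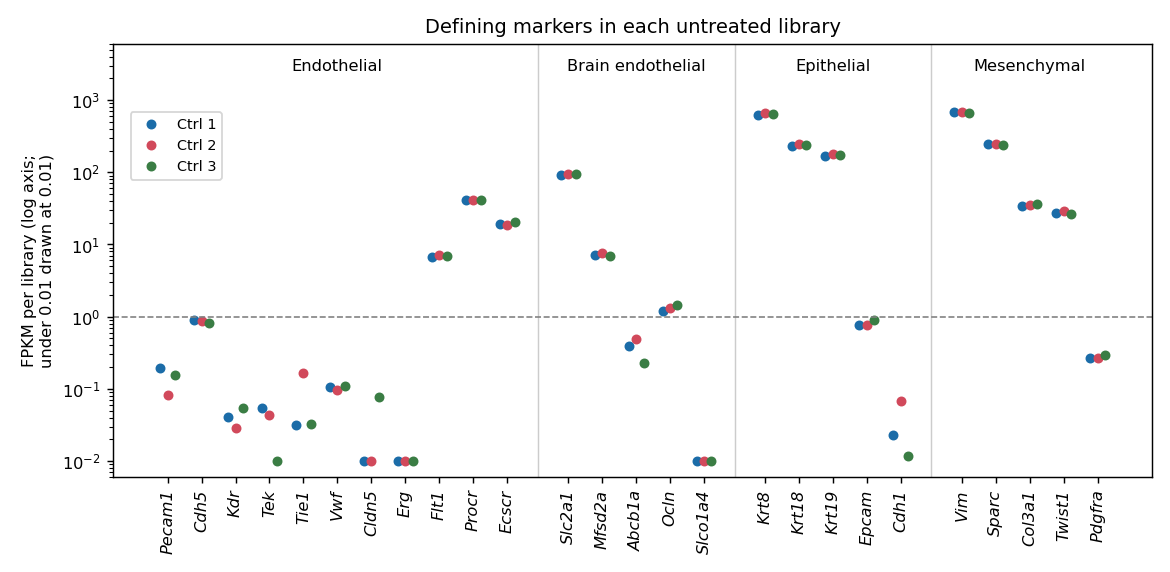
Levels of 26 marker genes in each of the 3 untreated libraries, in FPKM on a log axis, with values under 0.01 drawn at 0.01 and the 1 FPKM threshold as a dashed line. Of the endothelial genes drawn, Pecam1, Cdh5, Kdr, Tek, Tie1, Vwf, Cldn5 and Erg lie below the line in every library. Flt1, Procr and Ecscr lie above it, and Krt8, Krt18, Krt19, Vim and Sparc lie above 100.

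Of 25 genes linked with brain endothelium, 14 (56.0%) reached 1 FPKM in every library. Several of these encode carriers that dividing cells of many kinds use as well. The highest was Ly6a, a GPI-anchored surface protein also known as Sca-1, at 119, 122 and 125 FPKM. The lactate carrier gene Slc16a1 was at 108, 107 and 106 FPKM and the glucose carrier gene Slc2a1 at 91.7, 94.3 and 93.5 FPKM. Slc7a5, the light chain of the large neutral amino acid carrier, was at 72.1 ± 4.65 FPKM, the transferrin receptor gene Tfrc at 63.2 ± 3.02 FPKM and Ly6c1 at 59.4 ± 2.05 FPKM. Mfsd2a, the lysophospholipid carrier that restrains vesicle transport across brain endothelium, was at 7.05, 7.59 and 6.85 FPKM. Of the genes that more narrowly mark brain endothelium, the organic anion carriers Slco1a4, Slco1c1 and Slc22a8 and the membrane protein gene Itm2a had no fragment in any library. Abcb1a, the P-glycoprotein gene of brain capillaries, was at 0.397, 0.494 and 0.226 FPKM and occludin (Ocln) at 1.204, 1.32 and 1.47 FPKM.

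Keratins of simple epithelia and vimentin stood among the most abundant messages. Of 35 epithelial markers, 10 (28.6%) reached 1 FPKM in every library, below the 45.4% of all protein-coding genes. Krt8 (ENSMUSG00000049382, chr15:101996698-102004482, minus strand) was at 628, 658 and 635 FPKM and rank 52 of the protein-coding genes. Its filament partner Krt18 was at 230.5, 243 and 237 FPKM and Krt19 at 169.98, 178 and 172 FPKM. The ratio of Krt8 to Krt18 was 2.72, 2.703 and 2.68 in the 3 libraries, which were close for nearly all genes. Of the windows of the Krt8 transcript, 27.1% occur elsewhere in the genome, and its level is less certain for that. The desmosome genes Jup and Dsp were at 22.4 ± 0.609 and 6.07 ± 0.152 FPKM. By contrast, the genes that define epithelial adhesion were low: Epcam was at 0.763, 0.777 and 0.898 FPKM and Cdh1, E-cadherin, at 0.0338 ± 0.0293 FPKM, while Esrp1, Krt5, Krt7, Trp63, Ehf and Ap1m2 had no fragment.

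Of 27 fibroblast and mesenchymal markers, 14 (51.9%) reached 1 FPKM in every library, near the 45.4% of all protein-coding genes. Vim, the intermediate filament vimentin, was at 684, 687 and 658 FPKM and the matrix protein gene Sparc at 244, 249.6 and 239 FPKM. Vim and Krt8 were close to each other, with a ratio of 1.06 ± 0.0293. Fibrillar collagen III (Col3a1) was at 35.3 ± 1.09 FPKM and fibronectin (Fn1) at 24.04 ± 1.48 FPKM. Transcription factors known for the loss of epithelial adhesion were present, with Twist1 at 27.5, 29.1 and 26.7 FPKM and Snai1 at 23.5, 22.1 and 21.7 FPKM. N-cadherin (Cdh2) was at 10.3 ± 0.162 FPKM, 11.99 ± 0.594 times the level of Cdh5, although 22.3% of its transcript windows recur elsewhere in the genome. Among the markers of resident fibroblasts, Lum, Thy1, Fap, Postn and Tcf21 had no fragment, and Pdgfra was at 0.275 ± 0.0179 FPKM.

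**Figure D3:**
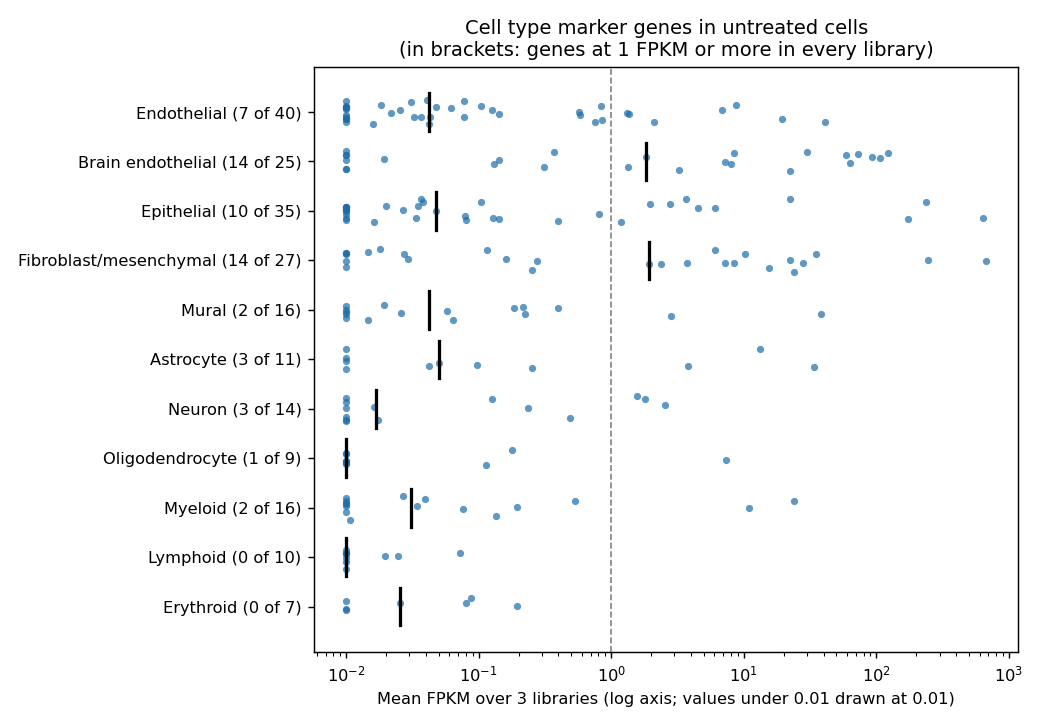
Mean level over the 3 untreated libraries of each gene in 11 cell type marker lists, in FPKM on a log axis, with values under 0.01 drawn at 0.01. Each point is a gene and each black bar the median of its list. The endothelial list has its median at 0.0426 FPKM, and the brain endothelial and mesenchymal lists have theirs near 2 FPKM.

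Markers of blood and of other brain cells were mostly absent. Of 10 lymphoid and 7 erythroid genes, 0 reached 1 FPKM in every library. Ptprc, the surface phosphatase carried by all white blood cells, had 0, 0 and 1 fragments. Of 16 myeloid genes, 2 reached the threshold. They were the lysosomal protein gene Cd68 at 23.8 ± 0.977 FPKM and the lipopolysaccharide co-receptor gene Cd14 at 10.9 ± 0.693 FPKM. Another 5 of the 16 had no fragment (Itgam, Tyrobp, C1qa, C1qb and C1qc), near the 30.5% of all protein-coding genes. Of 16 mural cell genes, 2 reached it, aminopeptidase N (Anpep, 38.2 ± 2.36 FPKM) and desmin (Des, 2.81 ± 0.445 FPKM), while Pdgfrb was at 0.223 ± 0.0318 FPKM and Acta2 at 0.184 ± 0.0985 FPKM. The counts were 3 of 11 for astrocytes, 3 of 14 for neurons and 1 of 9 for oligodendrocytes. The highest of these were Aldoc (33.7 ± 2.23 FPKM), an aldolase, Gja1 (13.3 ± 0.434 FPKM), a connexin, and Cnp (7.402 ± 0.493 FPKM), and the defining genes Aqp4, Slc1a3, Rbfox3 and Mog had no fragment. Cnp overlaps the higher Dnajc7 (28.1 FPKM) on the other strand by 8912 bases, and the neuron gene Syn1 (2.56 ± 0.275 FPKM) overlaps Timp1 (104 FPKM) by 4570 bases, so reads of either cannot be told apart there.

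Transcription factors of other lineages and of body position were also measured. Of the 39 Hox genes, which mark position along the body axis, 12 (30.8%) reached 1 FPKM in every library. The highest were Hoxc10 at 21.8, 22.9 and 19.6 FPKM, Hoxa11 at 18.7, 16.8 and 16.95 FPKM and Hoxa10 at 12.4, 10.8 and 13.2 FPKM, followed by Hoxa9 (8.003 ± 0.715 FPKM). These belong to the posterior end of their clusters. The 10 listed genes of the Hoxb cluster had no fragment in any library, and the antisense gene Hoxa11os (8.19 FPKM), which overlaps Hoxa11 by 1418 bases, leaves part of the Hoxa11 level uncertain. Of 8 forebrain factors, 1 reached the threshold, and Otx2, Emx1, Emx2 and Six3 had no fragment.

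Sox2, a factor of pluripotent and neural progenitor cells, was at 15.8, 15.98 and 14.98 FPKM, the gut factor Cdx2 at 11.2, 11.01 and 11.1 FPKM and the endoderm factor Foxa2 at 10.9, 10.1 and 10.9 FPKM. All 3 genes exceeded Gata2 in every library. Factors that often accompany them were low or absent: Pou5f1 and Hnf4a had no fragment, and Cdx1 was at 0.0395 ± 0.0684 FPKM. α-Fetoprotein (Afp) was at 4.21 ± 0.184 FPKM, the trophoblast and mesoderm factor Eomes at 4.03 ± 0.401 FPKM and the muscle and neural crest factor Pax3 at 4.41 ± 0.1598 FPKM. Lung, thyroid and kidney markers gave 0 of 9, mesothelial markers 1 of 6 (Msln, 1.81 ± 0.337 FPKM), melanocyte markers 1 of 6 (Mitf, 2.15 ± 0.204 FPKM), skeletal muscle markers 1 of 8 and mammary and prostate markers 2 of 8 (Gata3 and Csn3, 2.21 ± 0.213 and 1.72 ± 0.343 FPKM). No list of another cell type therefore had most of its members expressed, apart from the mesenchymal one. The mesenchymal share, 51.9%, was near the 45.4% of all protein-coding genes.

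Xist, the RNA that coats an inactive X chromosome, had 0, 1 and 0 fragments, and the Y-linked genes Ddx3y, Uty, Kdm5d and Eif2s3y had none. Of 15 imprinted genes, which are read from a single parental copy, 4 reached 1 FPKM: Grb10, an adaptor that dampens insulin signaling, at 31.5, 31 and 31.4 FPKM, Cdkn1c at 6.35 ± 0.803 FPKM, Peg3 at 3.07 ± 0.235 FPKM and Nnat at a lower level and overlapping Blcap (20.2 FPKM) on the other strand by 2445 bases. The growth factor gene Igf2, Dlk1 and Meg3 had no fragment.

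Among 314 receptor genes in 9 lists, 122 (38.9%) reached 1 FPKM in every library. Of 58 receptor tyrosine kinases, which pass growth factor signals by phosphorylation, 20 did so. Axl, a receptor for the phosphatidylserine bridge protein GAS6, was the highest at 65.3, 65.97 and 63.1 FPKM, 6.56 ± 0.363 times its relative Mertk and 26.2 ± 0.975 times Tyro3. The collagen receptors followed, with Ddr1 at 42.1, 42.9 and 40.01 FPKM and Ddr2 at 31.9, 33.2 and 33.3 FPKM. Epha2, an ephrin receptor, was at 32.5 ± 1.88 FPKM and Fgfr1 at 15.3 ± 0.476 FPKM. The hepatocyte growth factor receptor Met was at 9.22 ± 0.0985 FPKM, Insr at 4.14 ± 0.171 FPKM and Egfr at 2.02 ± 0.142 FPKM. No fragment was found for 12 of the 58, Fgfr2, Erbb4, Ret and Alk among them, a smaller share than the 30.5% of all protein-coding genes.

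Receptors of the TGF-β and BMP family were expressed in 9 of 14 cases (64.3%). Bmpr1a was at 16.8 ± 0.958 FPKM, Acvr1 at 14.9 ± 0.291 FPKM, the co-receptor Tgfbr3 at 8.497 ± 0.273 FPKM and Acvr1b at 6.898 ± 0.271 FPKM. The pair that binds TGF-β itself had similar levels, Tgfbr1 at 6.41, 5.64 and 6.54 FPKM and Tgfbr2 at 5.85, 6.48 and 6.68 FPKM, and their ranges overlapped. Acvrl1, the type I receptor that endothelial cells use, was at 0.0608, 0.144 and 0.0631 FPKM. Thus the general receptors of the family were present and Acvrl1 was near 0.

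Receptors of inflammation were expressed in part. Of 52 cytokine receptor genes, 24 (46.2%) reached the threshold, close to the background share, led by Il13ra1 (32.3 ± 2.32 FPKM), Il17rc (15.4 ± 0.653), Ifnar1 (12.9 ± 0.158) and Il1r1 (11.4 ± 0.8004). Both chains of the type I interferon receptor (Ifnar2, 6.66 ± 0.222 FPKM) and of the interferon-γ receptor (Ifngr1, 9.67 ± 0.199, and Ifngr2, 7.7 ± 0.455 FPKM) were present. Of 25 TNF receptor genes, 11 reached it. The TWEAK receptor gene Tnfrsf12a was at 121, 126 and 125 FPKM and the main TNF receptor gene Tnfrsf1a at 49.7, 50.6 and 46.2 FPKM. Tnfrsf1a was 2.69 ± 0.0221 times as high as Tnfrsf1b. Ltbr and the TRAIL receptor gene Tnfrsf10b were at 39.2 ± 1.92 and 21.3 ± 0.577 FPKM, whereas the death receptor gene Fas was at 0.403, 0.426 and 0.837 FPKM. Of 12 Toll-like receptors, 3 reached 1 FPKM: Tlr4, which senses lipopolysaccharide with Cd14, at 8.32, 7.94 and 7.77 FPKM, Tlr2 at 3.21 ± 0.0402 FPKM and Tlr3 at 1.22 ± 0.1695 FPKM.

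Of 26 integrin genes, whose products bind cells to matrix as αβ pairs, 11 (42.3%) reached 1 FPKM. Itgb7 (ENSMUSG00000001281, chr15:102215995-102231944, minus strand), best known from lymphocytes, was the highest at 92.6, 90.3 and 83.5 FPKM. The fibronectin receptor chain Itga5 was at 49.8, 52.6 and 48.8 FPKM and Itgb5 at 43.3, 44.7 and 41.4 FPKM, with Itga3 at 27.2 ± 1.5 and Itgav at 24.6 ± 1.03 FPKM. Itgb1 (ENSMUSG00000025809, chr8:128685654-128733200, plus strand), the β1 chain with which Itga5 and Itga3 pair, had 1, 0 and 3 fragments, a level of 0.0174 ± 0.0202 FPKM. None of the windows of its transcript occur elsewhere in the genome. The low value stood beside α chains that were high in each library, and its cause was not tested.

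Of 22 Notch, Wnt and Hedgehog receptor genes, 12 (54.5%) reached 1 FPKM, led by Fzd7 (18.9 ± 0.916 FPKM), Notch2 (14.7 ± 0.504), Smo (13.5 ± 0.363) and Fzd6 (13.2 ± 0.9496). Fzd4, the receptor through which Norrin and Wnt ligands maintain the blood-brain barrier, was at 0.363, 0.335 and 0.313 FPKM. Notch4, which is typical of endothelium, was at 1.66 ± 0.236 FPKM. Of 56 G protein-coupled receptors with known roles in vessels, 11 (19.6%) reached the threshold. The thrombin receptor gene F2r was at 38.6, 36.8 and 37.4 FPKM, and Lpar2, F2rl1 and S1pr2 lay between 10.6 (S1pr2) and 13.2 (Lpar2) FPKM. S1pr1, the sphingosine 1-phosphate receptor of endothelial cells, was at 0.596, 0.772 and 0.354 FPKM, and the endothelin receptor gene Ednrb and the angiotensin receptor genes Agtr1a, Agtr1b and Agtr2 had no fragment. Of 49 nuclear receptors, 21 (42.9%) reached 1 FPKM, led by Rxrb (25.2 ± 1.195 FPKM), Nr1h2 (19.5 ± 1.27), Rara (17.01 ± 1.04) and Thra (16.8 ± 0.659). The glucocorticoid receptor gene Nr3c1 was at 12.96, 13.2 and 14.4 FPKM, while the sex steroid receptor genes Pgr and Esr2 had no fragment.

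**Figure D4:**
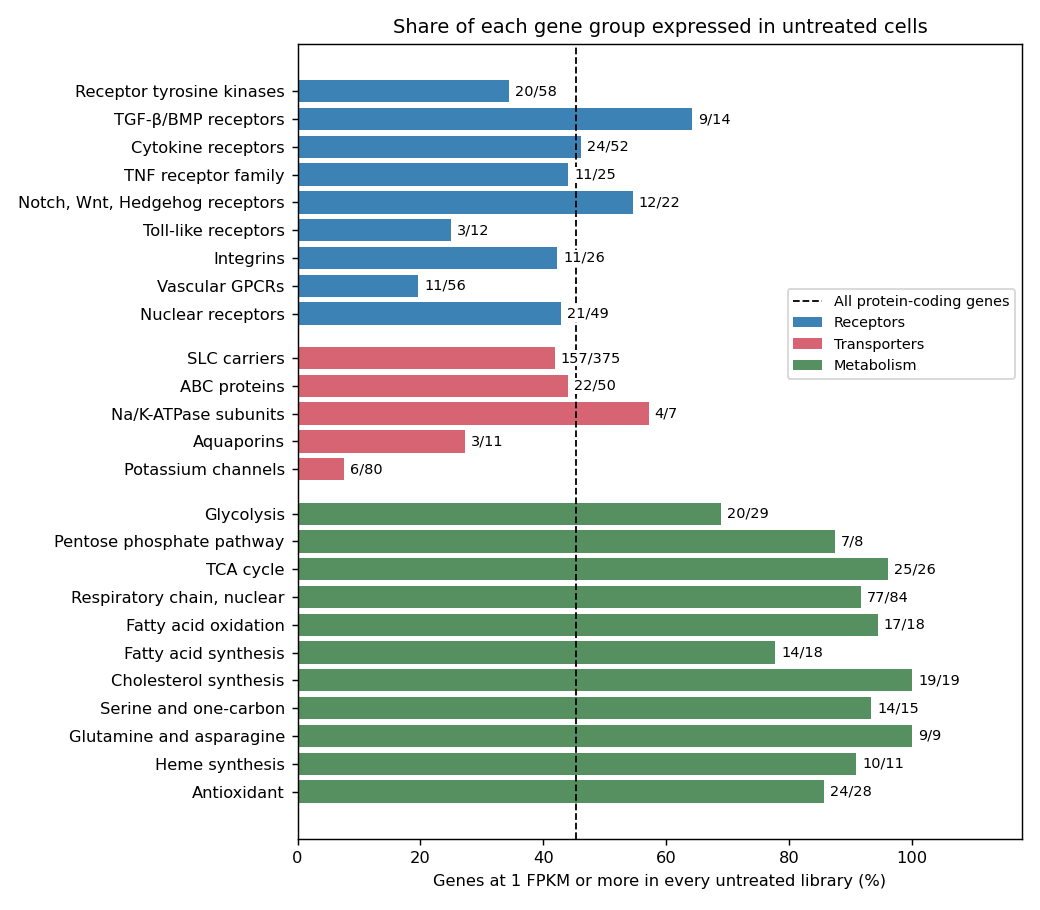
Share of the genes of each group that reached 1 FPKM in every untreated library, in percent, with the count beside each bar and a dashed line at the share of all protein-coding genes. Metabolic groups lie right of the line, and vascular G protein-coupled receptors and potassium channels lie far left of it. The solute carrier and respiratory chain lists were trimmed by gene name after levels were seen.

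Among 526 transporter and channel genes, 194 (36.9%) reached 1 FPKM in every library. The solute carriers, in a list trimmed by gene name after levels were seen, gave 157 of 375 (41.9%). Their highest members were the mitochondrial ADP/ATP carriers, with Slc25a5 at 345, 352 and 346 FPKM and Slc25a4 at 182, 182 and 176 FPKM, a ratio of 1.93 ± 0.0339. Next came the monocarboxylate carriers, which move lactate with protons across the plasma membrane. Slc16a3, the form suited to lactate export, was at 138, 144 and 134 FPKM, and its ratio to Slc16a1 was 1.297 ± 0.0426. The levels of Slc16a3 and Slc16a1 did not overlap between libraries.

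Among the glucose carriers, Slc2a1 stood highest at 93.2 ± 1.32 FPKM, the fructose carrier gene Slc2a5 at 14.04, 14.2 and 14.8 FPKM, Slc2a6 at 2.06 ± 0.0913 FPKM and Slc2a8 at 1.31 ± 0.0279 FPKM. Slc2a3, the neuronal glucose carrier, was at 0.0429, 0.0353 and 0.0446 FPKM, and the insulin-responsive Slc2a4 at 0.0202 ± 0.00933 FPKM. In all, 4 of the 12 members reached 1 FPKM.

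Amino acid carriers reached the threshold in 17 of 33 cases (51.5%). Besides Slc7a5, the highest were the taurine carrier gene Slc6a6 (67.8, 65.3 and 62.4 FPKM), Slc38a2 (60.02, 53.1 and 58.6 FPKM) and the glutamine carrier gene Slc1a5 (61.98, 54.9 and 54.4 FPKM). Slc3a2, the heavy chain that pairs with Slc7a5, was at 53.97 ± 2.25 FPKM, and the ratio of light to heavy chain was 1.34 ± 0.0379. The cystine carrier gene Slc7a11 was at 5.42 ± 0.341 FPKM. The glutamate carriers of brain capillaries and astrocytes were low, with Slc1a2 at 0.0423 ± 0.0184 FPKM and no fragment for Slc1a1 and Slc1a3. Zinc carriers reached 1 FPKM in 16 of 24 cases (66.7%), led by Slc39a1 (73.3 ± 2.305 FPKM), Slc30a4 (72.8 ± 1.55), Slc39a6 (36.4 ± 0.448) and Slc39a10 (16.6 ± 1.12).

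Of 50 ABC family genes, 22 (44%) reached 1 FPKM. The 3 highest, Abcf2 (82.7 ± 1.45 FPKM), Abcf1 (64.9 ± 2.79) and Abce1 (54.5 ± 1.76), have no membrane part and act in translation. Of 10 drug efflux pumps, 7 reached it, with Abcc4 at 17.7, 18.2 and 18.7 FPKM, Abcc1 at 10.8, 11.1 and 10.9 FPKM, Abcg2, the breast cancer resistance protein of the blood-brain barrier, at 7.91, 7.99 and 8.17 FPKM and Abcc5 at 7.49 ± 0.105 FPKM. Abcb1b, the second P-glycoprotein gene of rodents, was at 4.51, 3.92 and 4.705 FPKM, above Abcb1a in every library by a ratio of 11.3, 7.93 and 20.8. Abcc6 had no fragment.

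Genes that move heme, its precursors and iron bear on porphyrin photosensitizers, and 11 of 14 reached 1 FPKM. The mitochondrial carrier gene Slc25a39 was at 97.2, 97.9 and 89.3 FPKM, the lysosomal heme carrier gene Slc48a1 at 75.2, 72.5 and 69.9 FPKM and Slc25a37, mitoferrin-1, at 21.6, 21.6 and 21.2 FPKM. The heme exporter gene Flvcr1 was at 12.8 ± 0.353 FPKM. Slc40a1, the only known iron exporter, was at 0.0634, 0.102 and 0.1197 FPKM and the porphyrin importer gene Abcb6 at 0.576, 0.385 and 0.365 FPKM. Both lay below 1 FPKM in each library.

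Of 7 Na/K-ATPase subunit genes, 4 reached 1 FPKM, with the β chains Atp1b3 and Atp1b1 at 65.8 ± 3.23 and 16.5 ± 0.512 FPKM. Aquaporins gave 3 of 11, with Aqp8 at 4.1, 5.01 and 6.23 FPKM, Aqp3 at 4.17, 4.92 and 4.92 FPKM and Aqp1 at 4.15, 3.6 and 3.895 FPKM, ranges that overlap in part. Potassium channels gave 6 of 80 (7.50%), led by the calcium-activated Kcnn4 (14.9, 15.2 and 14.5 FPKM), Kcnk5 (8.25 ± 0.147), Kcnh2 (3.12 ± 0.46) and Kcnd1 (2.23 ± 0.271). No fragment was found for 35 of the 80, against 30.5% of all protein-coding genes. The inward rectifier gene Kcnj2, which sets the resting potential of brain endothelium, was among those 35.

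Most genes of the metabolic lists were expressed. Of 274 genes in 12 lists, 245 (89.4%) reached 1 FPKM in every library, against 45.4% of all protein-coding genes, and they held 9.99% of all FPKM. Of the 12 lists, that of the respiratory chain was trimmed by gene name after levels were seen. Glycolysis, the path from glucose to pyruvate and lactate, summed to 5128 ± 117 FPKM over 29 genes, 20 of them at 1 FPKM or more. Eno1 was at 934, 964 and 939 FPKM, Ldha at 893, 946 and 928 FPKM and Pkm at 861, 894 and 870.4 FPKM, which are the enolase, the lactate dehydrogenase and the pyruvate kinase of most dividing cells. Pgk1 (706 ± 28.8 FPKM), Aldoa (499.8 ± 24.2), Tpi1 (477 ± 13.7) and Pgam1 (328 ± 6.701) followed, although 89.8% of the windows of Pgk1 and 77.99% of those of Pgam1 have copies elsewhere in the genome.

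At several glycolytic steps, the levels of isoforms were far apart. Ldhb, the heart-type lactate dehydrogenase, had 2, 0 and 3 fragments against 56971, 61264 and 57054 for Ldha. The muscle enolase gene Eno3 was at 61.5 ± 0.539 FPKM, with a ratio of Eno1 to Eno3 of 15.4 ± 0.308, and the neuronal Eno2 at 2.26 ± 0.153 FPKM. The first step was shared, with Hk2 at 25.6, 25.8 and 25.9 FPKM and Hk1 at 25.4, 26.3 and 24.9 FPKM, ranges that overlap. The 3 phosphofructokinase genes Pfkl (47.9 ± 1.79 FPKM), Pfkm (28 ± 0.729) and Pfkp (26.2 ± 0.689) were all present. The liver and testis forms Pklr and Pgk2 had no fragment. Gapdh, a common reference gene, was listed at only 7.03, 19.8 and 7.05 FPKM, and 26.2% of its transcript windows occur elsewhere in the genome.

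The mitochondrial paths were expressed throughout. Of 26 genes of the TCA cycle and pyruvate dehydrogenase, 25 reached 1 FPKM, led by Sdhd (144 ± 3.65 FPKM), Mdh2 (98.5 ± 4.66) and Mdh1 (92.4 ± 2.12), and the testis form Pdha2 had no fragment. Of 84 nuclear genes of the respiratory chain and ATP synthase, in the list trimmed after levels were seen, 77 (91.7%) did. They were led by Cox8a (413 ± 31.9 FPKM), Atp5b (388 ± 7.89), Atp5a1 (358 ± 8.55) and Uqcr10 (297 ± 10.8). The 5 members with no fragment were the tissue-restricted Cox4i2, Cox6a2, Cox7b2, Cox8b and Cox8c. The 13 protein genes of the mitochondrial genome together held 4.56% ± 0.0939 of all FPKM and 1.85% of all fragments. Of these 13, 8 have more than 10% of their transcript windows elsewhere in the genome, so both shares are uncertain beyond the SD.

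These 13 genes were listed at very unequal levels. mt-Nd1 was at 3315 ± 17.6 FPKM, mt-Cytb at 3047 ± 81.3 FPKM, mt-Nd5 at 845 ± 8.93 FPKM and mt-Nd6 at 494 ± 39.1 FPKM. mt-Co2, mt-Co3 and mt-Atp6, which encode subunits of cytochrome c oxidase and ATP synthase, were at 96.2 ± 52.8, 22.2 ± 13.04 and 61.1 ± 45.7 FPKM. Every window of these 3 genes, and of mt-Nd4l and mt-Atp8, also occurs elsewhere in the genome, against 0% for mt-Nd1, 0% for mt-Cytb and 0% for mt-Nd5. The part of this shared sequence in the low values was not tested.

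Fatty acid synthesis was expressed in 14 of 18 genes. Scd2, a stearoyl-CoA desaturase, was at 335, 334 and 324 FPKM and exceeded Scd1 by a ratio of 4.09, 4.05 and 4.12. The enzymes that supply acetyl-CoA and join it into fatty acids, Acly and Fasn, were at 121, 128 and 129 and 119, 121 and 110.2 FPKM, and the desaturase gene Fads2 at 88.3 ± 1.85 FPKM. Fatty acid oxidation was expressed in 17 of 18 genes at lower levels, with Acadl at 61.5 ± 2.98 FPKM, Eci1 at 48.3 ± 0.233, Etfa at 44.03 ± 3.06 and Acaa2 at 42.1 ± 0.384. The entry enzyme was the liver-type Cpt1a (29.5, 28.4 and 26.8 FPKM), since the muscle-type Cpt1b was at 0.0308, 0.0758 and 0 FPKM.

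All 19 genes of cholesterol synthesis reached 1 FPKM in every library, and Tm7sf2 was the lowest at 2.43 FPKM. Sqle, the squalene epoxidase, was at 49.02, 50.9 and 53.5 FPKM and Hmgcs1, which makes HMG-CoA, at 37.5, 42.7 and 46.1 FPKM. Pmvk was at 41 ± 3.75 FPKM. These genes are known to be switched on together by the sterol-sensing factor SREBP-2 (Srebf2, 66.98 ± 2.24 FPKM), which works with NF-Y on CCAAT boxes and with Sp1 on GGGCGG boxes.

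Because the whole path was expressed, its promoters were read from the RefSeq promoter table (GRCm38.p6), which held 14 of the 19 genes. In the 300 bases from 250 before to 50 after the first-listed start, CCAAT was found on either strand (as CCAAT or ATTGG) in 13 of the 14 (92.9%), against 37.9% of all 27025 promoters of the table and 39.2% of those of genes at 1 FPKM or more in every library. GGGCGG was found on either strand (as GGGCGG or CCGCCC) in 13 of the 14, against 35.9% of all promoters and 69.02% of those of genes at 1 FPKM or more in every library. Of the other gene lists read, that of proliferation genes came nearest, with CCAAT in 12 of 16 promoters (75%) and GGGCGG in 14 of 16 (87.5%). The 2 motifs are therefore not particular to the cholesterol path. The last 150 bases before the start are shown for the 8 genes that hold both motifs there and whose starts lie within 50 bases of the gene boundary in the files, and for Dhcr7, the one without a CCAAT box. TCACNCCAC, a form of the sterol regulatory element, was in 1 of the 14 (7.14%), that of Hmgcs1, against 1.22% of all. Capitals mark CCAAT and GGGCGG boxes on either strand, which do not overlap each other here.
Mvk, chr5:114444119-114444268, plus strand: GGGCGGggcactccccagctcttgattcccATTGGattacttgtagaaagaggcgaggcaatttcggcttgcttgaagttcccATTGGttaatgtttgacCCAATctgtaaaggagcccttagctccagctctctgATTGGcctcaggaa
Mvd, chr8:122443423-122443572, minus strand: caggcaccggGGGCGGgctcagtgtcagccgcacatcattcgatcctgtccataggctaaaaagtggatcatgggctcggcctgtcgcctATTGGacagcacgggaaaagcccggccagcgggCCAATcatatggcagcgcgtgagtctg
Hmgcs1, chr13:119690201-119690350, plus strand: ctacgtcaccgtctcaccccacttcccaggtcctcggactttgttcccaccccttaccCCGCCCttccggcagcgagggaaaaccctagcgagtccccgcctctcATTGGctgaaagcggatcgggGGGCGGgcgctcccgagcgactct
Nsdhl, chrX:72918371-72918520, plus strand: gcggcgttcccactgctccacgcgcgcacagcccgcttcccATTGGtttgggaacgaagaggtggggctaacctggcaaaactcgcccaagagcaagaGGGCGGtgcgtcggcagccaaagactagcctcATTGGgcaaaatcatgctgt
Ebp, chrX:8193513-8193662, minus strand: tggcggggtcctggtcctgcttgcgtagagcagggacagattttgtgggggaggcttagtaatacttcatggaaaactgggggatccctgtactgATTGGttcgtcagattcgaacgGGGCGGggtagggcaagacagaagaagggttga
Cyp51, chr5:4104698-4104847, minus strand: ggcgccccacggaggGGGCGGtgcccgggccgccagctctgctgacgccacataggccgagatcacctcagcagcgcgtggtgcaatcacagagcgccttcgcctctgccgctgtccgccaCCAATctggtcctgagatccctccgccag
Lss, chr10:76531455-76531604, plus strand: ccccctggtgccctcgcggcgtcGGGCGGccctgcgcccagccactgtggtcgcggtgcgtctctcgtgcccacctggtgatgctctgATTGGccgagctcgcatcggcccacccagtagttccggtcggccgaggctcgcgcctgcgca
Hsd17b7, chr1:169969206-169969355, minus strand: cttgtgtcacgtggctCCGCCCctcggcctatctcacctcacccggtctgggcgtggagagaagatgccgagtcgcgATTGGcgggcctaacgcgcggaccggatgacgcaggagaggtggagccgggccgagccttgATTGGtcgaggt
Dhcr7, chr7:143823017-143823166, plus strand: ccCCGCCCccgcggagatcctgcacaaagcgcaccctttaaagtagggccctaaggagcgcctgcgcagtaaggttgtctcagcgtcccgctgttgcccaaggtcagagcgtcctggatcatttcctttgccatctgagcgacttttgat
Mvk holds 4 CCAAT boxes in this window and was at 10.1, 10.5 and 11.2 FPKM. The 3 genes with 2 boxes were Mvd, Nsdhl and Hsd17b7, at 24.6 ± 1.85, 15.8 ± 1.27 and 9.47 ± 0.537 FPKM. The 4 genes with 1 box were Hmgcs1, Cyp51, Ebp and Lss, at 42.1 ± 4.35, 30.4 ± 1.65, 15.5 ± 0.371 and 9.84 ± 0.164 FPKM, and Dhcr7, which holds 0, was at 14.1 ± 1.15 FPKM. The levels of these 9 genes did not follow the number of boxes. A match is a stretch of letters and not a shown site of binding.

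Promoters of expressed and silent genes at large were read in the same way. Of promoters of genes at 1 FPKM or more in every library, 69.02% held GGGCGG and 6.28% held TATAAA on either strand. Of promoters of genes below 0.1 FPKM in every library, 23.5% held GGGCGG and 21.8% held TATAAA. The median GC content was 61.7% in the first group and 49% in the second. The ETS-like motif CCGGAAG (or CTTCCGG) was in 39.7% of 58 ribosomal protein promoters, against 20.9% of those of genes at 1 FPKM or more in every library and 9.12% of all.

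Serine and one-carbon enzymes, which feed nucleotide synthesis, reached 1 FPKM in 14 of 15 cases. Phgdh, the first step from glycolysis to serine, was at 357, 367 and 345 FPKM, Psat1 at 137, 139 and 147 FPKM and Psph at 12.8 ± 0.872 FPKM, so the third step of the path was the lowest. Mat2a and Shmt2 were at 101 ± 5.43 and 88.3 ± 4.66 FPKM. All 9 genes of glutamine and asparagine metabolism reached the threshold, led by Glud1 (66.4 ± 0.58 FPKM), Got2 (60.8 ± 3.098), Got1 (58.9 ± 1.11) and Asns (52.9 ± 2.24). The pentose phosphate path gave 7 of 8, with Pgd at 90.9 ± 1.05 FPKM, Taldo1 at 76.8 ± 2.78, Tkt at 64.3 ± 2.07, the entry enzyme G6pdx at 63.5, 62.8 and 63.1, Pgls at 18.2 ± 1.304, Rpe at 9.85 ± 1.02 and Rpia at 4.97 ± 0.189 FPKM. Tktl1 had 0, 0 and 2 fragments.

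The antioxidant genes gave 24 of 28 and a sum of 1832 ± 14.1 FPKM. Thioredoxin (Txn1), which reduces protein disulfides, was at 467, 481 and 485 FPKM, 11.4 ± 0.659 times its mitochondrial form Txn2. The peroxiredoxin gene Prdx1 was at 233, 237 and 245 FPKM, Gpx4, which clears lipid peroxides, at 159 ± 5.71 FPKM and Gpx1 at 129 ± 2.87 FPKM. The cytosolic superoxide dismutase gene Sod1 was at 91.8, 90.7 and 92 FPKM and the mitochondrial Sod2 at 10.5, 9.598 and 9.92 FPKM, but 30.5% of the Sod2 windows recur in the genome. The extracellular Sod3 was at 0.113 ± 0.05399 FPKM.

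The heme path, whose end product precursor protoporphyrin is itself a photosensitizer, was expressed in 10 of 11 genes. Fech, which inserts iron into protoporphyrin, was at 23.7, 24.6 and 23.5 FPKM, above Alas1, the first and rate-limiting enzyme, at 9.69, 9.704 and 10.2 FPKM. Alad (15.6 ± 2.08 FPKM) and Urod (12.8 ± 0.495 FPKM) lay between the 2. Heme breakdown by Hmox1 was at 21.6, 21.8 and 20.4 FPKM and by the constitutive Hmox2 at 11.3, 11.5 and 11.2 FPKM. The erythroid first enzyme Alas2 was at 0.07996 ± 0.08703 FPKM.

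Of 23 claudins, which seal tight junctions, 1 reached 1 FPKM, Cldn12 at 5.23, 5.19 and 5.43 FPKM, and the next were Cldn6 (0.6396 ± 0.126 FPKM), Cldn20 (0.604 ± 0.215) and Cldn9 (0.232 ± 0.159). The scaffold gene Tjp1 was at 31.3, 30.2 and 29.2 FPKM, F11r at 13.9 ± 0.397 FPKM and the catenins Ctnnb1 and Ctnna1 at 141 ± 3.43 and 116 ± 1.84 FPKM. In all, 10 of the 19 other junction genes reached the threshold. Of 20 connexins, 4 did so, Gja1 (13.3 ± 0.434 FPKM) and Gjb5 (3.59 ± 0.154 FPKM) among them. The connexins of arterial and capillary endothelium, Gja4 and Gja5, were at 0.176 ± 0.0639 and 0.0181 ± 0.0178 FPKM.

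Of 44 collagens, 12 (27.3%) reached 1 FPKM, with a list median of 0.0767 FPKM. The highest were chains of basement membrane collagens: Col4a1 was at 73.8, 72.8 and 66.3 FPKM and Col4a2 at 54.4, 53.8 and 49.4 FPKM, and their ratio was 1.36, 1.35 and 1.34. Col18a1 was at 36.3 ± 2.05 FPKM. Laminins gave 5 of 11 (45.5%, the background share) and a list median of 0.137 FPKM, with Lamc1 at 64.3, 63.7 and 62.9 FPKM, Lama5 at 50.3, 53.02 and 47.4 FPKM, Lamb1 at 43.5, 44.9 and 42.2 FPKM and Lamb2 at 10.8 ± 0.5304 FPKM. Lama4, the α chain that endothelial cells also deposit, had no fragment.

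Of 32 genes with functions in vessels, 21 (65.6%) reached 1 FPKM. The caveolar coat gene Cavin1 was at 316, 313 and 306 FPKM and Cav1 at 48.9, 52.5 and 54.5 FPKM. The fibrinolysis genes were present together, with Plaur at 58.8, 56.9 and 57.1 FPKM, Plau at 38.4 ± 2.46 FPKM and Plat at 18.2 ± 1.01 FPKM. Vegfa was at 46.2, 47.6 and 46.1 FPKM. The adhesion molecules that white blood cells bind, E-selectin (Sele), VCAM-1 (Vcam1) and P-selectin (Selp), were at 6.57, 7.16 and 7.49, 4.303, 4.66 and 5.08 and 2.81, 2.59 and 2.31 FPKM, and Icam1 at 0.0714, 0.117 and 0.148 FPKM. E-selectin and P-selectin are known as genes of endothelial cells and, for the latter, platelets. Endothelin-1 (Edn1) had 0, 0 and 1 fragments, and Nrp1, a VEGF co-receptor, was at 0.9904 ± 0.143 FPKM.

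All 21 proliferation genes reached 1 FPKM in every library. Pcna, the sliding clamp of DNA polymerase, was at 246 ± 5.09 FPKM, Cdk4 at 141 ± 2.52, Mcm3 at 103 ± 2.79 and Top2a at 93.6, 94.9 and 98.8 FPKM, and Mki67 at 35.9, 36.3 and 35.96 FPKM. Of 12 genes that brake the cycle, 9 reached it. Trp53 was at 114, 115 and 107 FPKM, its target Cdkn1a at 70.5, 79.1 and 65.99 FPKM, Mdm2 at 16.8 ± 0.579 FPKM and Cdkn2d at 13.3 ± 0.456 FPKM. Cdkn2a and Cdkn2b, neighbours that encode inhibitors of cyclin-dependent kinases and ARF, had no fragment in any library, and Rb1, which Rcbtb2 (4.66 FPKM) overlaps on the other strand by 24171 bases, was at 1.04, 0.731 and 0.958 FPKM. Of 25 immediate early genes, 21 reached 1 FPKM, led by Ier3 (193 ± 1.47 FPKM), Fosl1 (92.2 ± 4.94), Junb (74.6 ± 4.97) and Ier2 (65.2 ± 3.41), while Fos was at 1.73 ± 0.148 FPKM.

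The 3 libraries were close for nearly all genes, and the exceptions were mainly genes with copies. Of 7291 genes with a mean of at least 5 FPKM, 82 (1.12%) differed by over 2-fold between the highest and the lowest library, and the median ratio of highest to lowest was 1.08. Of these 82, 55 are pseudogenes, 11 are protein-coding and 18 are under 200 bases long. Ctrl 3 was the highest for 59 of them, and without Ctrl 3 the count was 17, so most of it rests on that library.

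Shared sequence was measured as the percent of 100-base windows of a gene's longest transcript that lie base for base elsewhere in the mouse genome. Among genes with no such window, 4 of 5173 (0.0773%) differed by over 2-fold, and among genes with more than 50% of their windows shared, 40 of 181 (22.1%) did. Of the 69 genes over 2-fold with such windows to count, 60 had more than 10% of their windows shared. The part of read placement in these differences was not tested.

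Sumo2 (ENSMUSG00000020738, chr11:115523102-115536276, minus strand), which encodes a ubiquitin-like modifier, had the largest ratio, at 83.9, 13.99 and 96.8 FPKM. Gm10241, a processed pseudogene with all of its windows found elsewhere, followed at 50.2, 260.1 and 41.05 FPKM. In Ctrl 2, Sumo2 was thus low and Gm10241 high. Together they had 3085, 1930 and 3337 fragments in Ctrl 1, 2 and 3, so their combined count was also lowest in Ctrl 2, and the cause was not tested. Of the mitochondrial genes, mt-Atp6 was at 39.3, 30.3 and 114 FPKM, mt-Co2 at 84.5, 50.2 and 154 FPKM and mt-Co3 at 10.6, 19.6 and 36.3 FPKM, each highest in Ctrl 3. Gm28661 and Gm29216, unprocessed pseudogenes on chromosome 1 with 100% and 96.2% of their windows shared, were highest in Ctrl 3 as well, at 28.9, 44.5 and 128 FPKM and 9.91, 7.69 and 31.4 FPKM. Rps27rt, a ribosomal protein retrogene, was at 657, 365 and 204 FPKM, and Ndufa12, a complex I subunit with 6.29% of its windows shared, at 29.7, 13.8 and 15.3 FPKM. Among the 10 largest ratios were also the short genes Gm17622 (45 bases, 8.07, 12.5 and 2.39 FPKM) and Gm23969 (74 bases, 10.5, 6.91 and 2.18 FPKM), the pseudogenes Gm11263 (2.77, 4.64 and 12.8 FPKM), Gm44126 (9.69, 14.4 and 3.14 FPKM) and Gm10123 (235, 269 and 945 FPKM) and the non-coding Gm10076 (15.9, 32.6 and 64.8 FPKM).

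**Figure D5:**
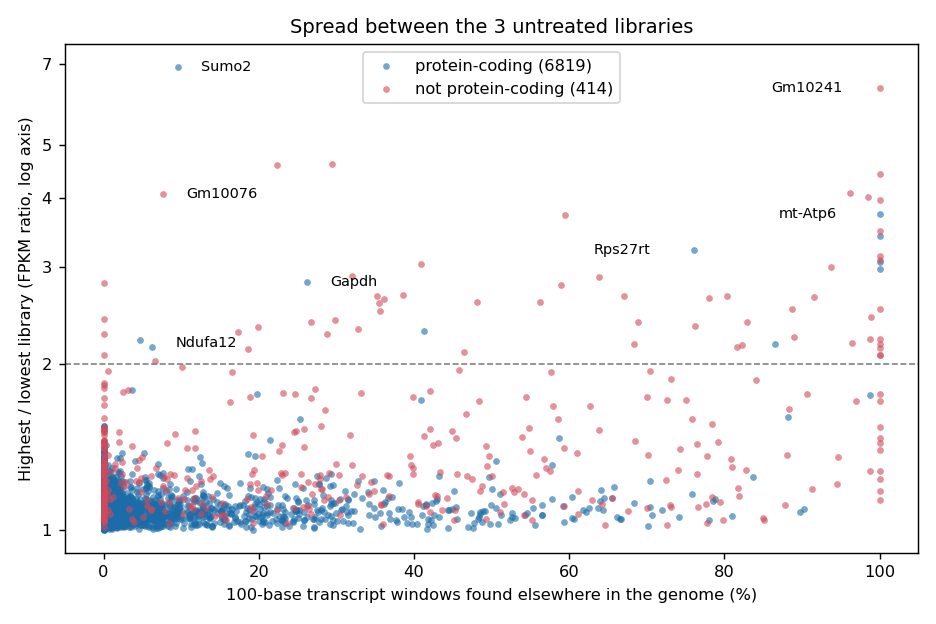
Ratio of the highest to the lowest of the 3 untreated libraries (log axis) against the percent of transcript windows found elsewhere in the genome. The 7233 genes drawn have a mean of at least 5 FPKM, transcript windows to count and a value above 0 in each library. Of the 82 genes over 2-fold, the 69 with windows are drawn. Each point is a gene, and the dashed line marks 2-fold. Most genes lie close to 1, and the points above the line lie mainly among genes with shared windows, with Sumo2 the highest.

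Genes in common use as references were all expressed, and 14 of the 16 had a coefficient of variation under 10% between the libraries. Their median was 4.12%, close to the 4.61% of all protein-coding genes at 1 FPKM or more in every library. B2m, the light chain of MHC class I, was at 789.7, 807 and 801 FPKM with a coefficient of variation of 1.12%. Those of Eef1a1, Rplp0, Actb, Pgk1 and Tubb5 were 1.68%, 3.26%, 5.16%, 4.09% and 4.16%. Those of Ywhaz, Hprt, Polr2a, Sdha, Gusb and Tbp were 1.76%, 7.56%, 6.22%, 1.94%, 2.5% and 2.57%. Ppia reached 16.1%, from 564, 586 and 429 FPKM. Gapdh reached 65.2%, being 2.81 times as high in Ctrl 2 as in the lowest library. Ppia and Gapdh have 19.5% and 26.2% of their windows shared, and B2m 0%. Of the 16 genes, 6 have more than 10% of their windows shared, and Pgk1, at 4.09%, is among them. The part of shared sequence in the spread of these genes was not tested.

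Protein-coding genes held 91.2% of summed FPKM. Pseudogenes of all kinds held 5.34% of summed FPKM and 1.06% of fragments, and 612 of 12789 reached 1 FPKM in every library. The highest non-coding genes of at least 200 bases were Gm9794 (792, 848 and 835 FPKM), Rps10-ps2 (608, 659.5 and 634 FPKM), Gm10123, Gm10443 (467, 465 and 407 FPKM) and Rps12-ps3 (441, 474 and 402 FPKM), all annotated as processed or transcribed processed pseudogenes. The parent gene Rps10 was listed at 7.92, 6.15 and 6.29 FPKM, below its copy Rps10-ps2 in every library. Among 16 long or abundant RNAs, 8 reached 1 FPKM, with Snhg8 at 43.7 ± 2.34 FPKM, the DNA damage-related Norad (listed as 2900097C17Rik) next in order, the growth arrest RNA Gas5 at 34.1 ± 0.677 FPKM and Malat1 at 31.8 ± 1.43 FPKM. The single highest value of the files was that of Gm23935, a gene of 57 bases with no type in the annotation used, at 6148, 5516 and 5139 FPKM from 6757, 6150 and 5439 fragments, a level that division by so short a length raises.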

How the data were processed

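RNA of 3 untreated b.End3 libraries was sequenced in paired-end reads on an Illumina HiSeq. The authors aligned the reads, counted fragments per gene and deposited FPKM values with the gene length used. The study's methods name the GRCm39 genome, while Bowtie 0.12.2 and mm8 appear in the submitters' processing notes. The coordinates in the files were those of GRCm38, in which 99.9% of 37624 genes overlapped their RefSeq entry (GRCm38.p6), against 10.9% of 50453 in GRCm39. Whether counting used strand is not given in the sources used here.

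FPKM times length was a whole multiple of 1 step per library for 100% of values, with a tolerance of 0.05, and the fragments behind each value were read from it. These 18289776 to 19509225 fragments per library set the precision, and all intervals and floors cover counting error only. The FPKM columns of the 6 treated libraries were not used. A gene was counted as expressed at 1 FPKM or more in all 3 libraries, and gene types came from the GENCODE M39 annotation by identifier, which 92.5% of identifiers matched. Shared sequence was the percent of 100-base windows, every 3 bases along the longest M39 transcript, with an identical copy elsewhere in GRCm39. No test between groups was run. The members and gene lists were chosen with earlier results of these data known, and the solute carrier, respiratory chain and ribosomal protein lists were trimmed by gene name after levels were seen.

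Named genes were the 20 highest protein-coding genes, the 4 highest and the fragment-free members of each list, further list members with their level, the 10 largest ratios between libraries, the reference genes and the 5 highest non-coding genes of at least 200 bases. A few genes that these rules name are not reported here. Calculations used Python 3.11.15, numpy 2.4.6, pandas 2.3.3 and numba 0.67.0, and the scripts were checked on simulated data. Alternatives were other FPKM thresholds, a threshold in fragments, TPM scaling, scaling by the library median, a pseudocount, other length and level filters and leaving out each library.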

Additional observations from a re-analysis of the deposited data

How the results depend on the processing

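Of 76 recomputed values, 62 stayed within the spread of the libraries or, for counts, within 1.5 times the value reported, and 14 moved. The counts of expressed genes depended mainly on the threshold. With a threshold of 5 FPKM, 4 endothelial markers, 5 epithelial markers, 68 receptor genes and 119 transporter genes counted as expressed. The 7 endothelial markers became 12 at 1 TPM, a lower bar than 1 FPKM here, and 14 with at least 10 fragments in place of 1 FPKM. Counted as fragments rather than FPKM, the 50 most abundant protein-coding genes held 10.9% and the mitochondrially encoded protein genes 1.85% of the total, since FPKM divides by length and these genes are short. With genes of at least 300 bases only in the sum, the shares were 20.6% and 4.70%. The 82 genes that differed by over 2-fold became 456 with a mean of at least 1 FPKM, 9 among genes with at most 10% of their windows shared and 11 among protein-coding genes, and the last 2 alternatives were chosen after seeing the data.

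Leaving out 1 library at a time gave 9824 to 9837 genes expressed, 122 to 124 receptor genes, 195 to 196 transporter genes and 245 to 246 metabolic genes, while the endothelial, brain endothelial and epithelial counts stayed at 7, 14 and 10. The share of the 50 most abundant genes was 19.9 to 20.1% and that of the mitochondrially encoded genes 4.51 to 4.59%. The count of genes over 2-fold was 17 to 64, and the lower value, 17, was the one without Ctrl 3. No paired analysis was possible because only the untreated samples were described and no test was run. Depth limits genes near 0: 1 fragment more or less changes a value such as that of Kdr, with 7, 5 and 9 fragments, by a large part.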

Other observations

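Several genes outside the gene lists were abundant in the untreated cells. These were picked after their values were seen, and they are given as levels only. Rhox5, an X-linked homeobox gene best known from testis and placenta, was at 607, 638 and 616 FPKM. Of 34 Rhox genes it was the sole member at 1 FPKM or more in every library, and 29 had no fragment in any. Metallothionein 1 (Mt1), which binds zinc and copper, was at 501, 531 and 457 FPKM, whereas its neighbour Mt2 was at 3.97, 3.48 and 4.49 FPKM. Osteopontin (Spp1), a secreted phosphoprotein, was at 334, 370.01 and 372 FPKM. Each of these genes stayed in a narrow range over the 3 libraries beside the differences between genes.

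Other families were counted as well. Of 33 chemokines, 8 reached 1 FPKM, with Ccl2, which draws monocytes, at 159.6, 177 and 169.7 FPKM. Annexins, which bind membrane phospholipids, gave 10 of 12 and S100 proteins 6 of 14. Of 23 matrix metalloproteinases, 8 reached the threshold, and their inhibitors Timp2 and Timp1 were at 122 ± 2.23 and 104 ± 1.98 FPKM. Of 49 keratins, 8 did so and 27 had no fragment. The MHC class I genes H2-K1 and H2-D1 were at 372 ± 9.14 and 364 ± 7.31 FPKM, beside B2m at 799 ± 8.92 FPKM. Ifitm3, an interferon-induced membrane protein, was at 428 ± 15.1 FPKM.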
